A study of Mus musculus and Homo sapiens with 24 samples.

Results

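The genes described here are 10 transcriptional targets of the tumour suppressor p53: MDM2, CCNG1, ZMAT3, PHLDA3, SESN1, TP53INP1, BBC3, BAX, FAS and EDA2R. They were taken by gene symbol from the deposited tables of a human and a mouse myoblast line, as 10 of 58735 human and 10 of 56748 mouse gene rows. Of these, 9 carry the same symbol in both species apart from case, and TP53INP1 is Trp53inp1 in mouse. All 10 passed the filter on low counts in both lines, so none is missing from the tests.

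The study followed the transcriptome of 2 skeletal myoblast lines through differentiation. LHCN-M2, a human line immortalised with telomerase and CDK4, was sampled at days 0, 1 and 12, and C2C12, a mouse line, at days 0, 1 and 6. Each line and day has 4 libraries of polyadenylated RNA, 24 in all, and every sample carries the genotype label control with no added agent named. Each line is 1 established line. Whether replicates came from separate cultures is not in the labels, and p-values therefore reflect library-to-library spread that may be technical only.

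p53 is a transcription factor that is held at a low level by the ubiquitin ligase MDM2 and accumulates after DNA damage and other stresses. Its target genes include its own inhibitors, brakes on the cell cycle and on growth, and proteins that start cell death through the mitochondrion or through death receptors. Several of these genes are also controlled by other transcription factors, and in muscle differentiation they are known in connection with the exit of myoblasts from the cell cycle and with the death of cells that do not differentiate.

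The libraries held 33030258 to 48546621 counts each in LHCN-M2 and 32795699 to 43827517 in C2C12. Levels are CPM, the count scaled to a common library total, given as mean ± SD over n = 4 libraries, and changes are log2 fold changes of the later day over the earlier day. A gene is said to rise or fall where the adjusted p of edgeR's quasi-likelihood test, over all genes tested, was under 0.05. The summed level of 8 muscle markers (MYOD1, MYF5, DES, MYOG, MYH3, ACTA1, CKM and TNNT3) ran at 564 to 759, 1564 to 1803 and 5226 to 5513 CPM on days 0, 1 and 12 of LHCN-M2. It ran at 257 to 272, 380.3 to 409 and 2393 to 2518 CPM on days 0, 1 and 6 of C2C12. All rose over day 0 at both later days in both lines, except MYF5 in LHCN-M2, which fell (-2.06 at day 1 and -4.24 at day 12). MYOD1 fell from day 1 to day 12 of LHCN-M2 (-1.16). The 10 markers of immune, endothelial, epithelial, fat and glial cells summed to at most 8.48 CPM in any library, with CDH5 and ADIPOQ at 0 counts in all LHCN-M2 libraries and Sox10 at 0 in all C2C12 libraries. In LHCN-M2 the library of day 0 replicate 2 stood apart from the other 3 of its day on the third principal component (-72.5, against 19.1 to 29.9), and the results of the 10 genes whose call or direction changes without it, or whose size moves by over 1.5 times, are given with and without it. Day 12 replicate 1 lay on the same side, less far from its day (-22.3, against 4.41 to 9.27).

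In LHCN-M2 at day 1, 7 of the 10 were higher than at day 0 and 1 was lower, against 23.4% of all genes tested higher and 23.5% lower, 46.9% in all. The median log2 fold change of the 10 was 0.66, beside 0.029 over all genes. At day 12, 5 were higher and 2 lower than at day 0, against backgrounds of 27.1% and 27.5% (54.6% in all), with a median of 0.29 beside -0.0096. Without day 0 replicate 2 this median of the 10 was 0.18. Set against day 1, day 12 had 0 of the 10 higher and 5 lower (backgrounds 20.9% and 18.8%, 39.8% in all). DESeq2 also called 0 of the 10 higher there, and all 10 estimates were below 0, so 0 were higher at an unadjusted p under 0.05 as well. The 5 became 3 on leaving out day 1 replicate 4 or day 12 replicate 4.

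In C2C12 the early change was small. At day 1, 4 of the 10 were higher and 2 lower than at day 0, against 25.9% and 24.4% of all genes (50.3% in all), shares near those of the 10. The median was -0.010, beside -0.0063 over all genes, and no member changed by more than 0.60 on the log2 scale. At day 6, 4 were higher and 5 lower than at day 0 (backgrounds 33.1% and 32.5%, 65.6% in all), with a median of -0.43 beside -0.028. The 5 that fell all fell by more than 1 on the log2 scale. Of the 17065 genes tested, 2311 were called lower by at least that much. Against day 1, day 6 had 2 higher and 5 lower (backgrounds 32.8% and 28.6%, 61.4% in all). The 3 comparisons of a line share libraries, so they are not separate pieces of evidence. These are bulk samples, in which fewer cells of a kind and less RNA per cell cannot be told apart.

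**Figure D1:**
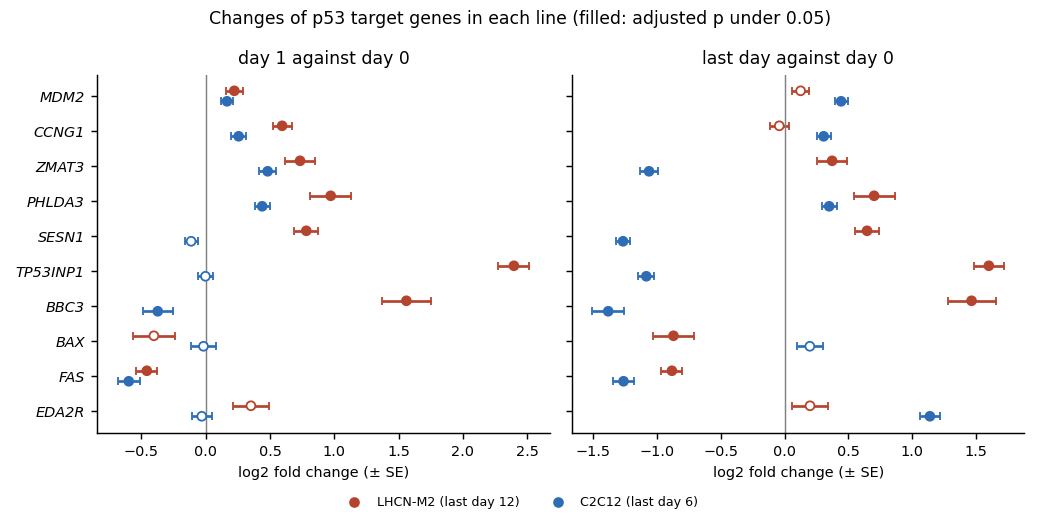
Log2 fold changes of the 10 genes (points, with bars of 1 SE) at day 1 over day 0 on the left and at the last day over day 0 on the right, in LHCN-M2 (red) and C2C12 (blue); filled points had an adjusted p under 0.05. TP53INP1, BBC3, SESN1 and ZMAT3 lie right of 0 in LHCN-M2 and left of 0 in C2C12 on the last day.

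The changes of proliferation markers were lower in LHCN-M2 than in C2C12. The difference between the lines was negative for 8 of 8 at day 1 and at the last day over day 0 (backgrounds 34.0% and 39.9%). The summed level of 8 proliferation markers (among them MKI67, TOP2A and PLK1) ran at 1068 to 1416, 101 to 127 and 215 to 242 CPM on days 0, 1 and 12 of LHCN-M2. All 8 fell at both later days (backgrounds 23.5% and 27.5%). In C2C12 the sum ran at 1787 to 1814, 1244 to 1324 and 1944 to 2120.4 CPM at days 0, 1 and 6. There 8 of 8 fell at day 1 (background 24.4%), and 4 rose and 1 fell at day 6 (33.1% and 32.5%), against day 0. The part of these changes in the p53 target results was not tested.

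MDM2 encodes the ubiquitin ligase that marks p53 for degradation and is itself induced by p53, which closes a feedback loop. The human gene lies on chromosome 12, 68808176 to 68850686 on the plus strand (GRCh38, whole gene). It stood at 137, 129, 151 and 142 CPM at day 0 of LHCN-M2, at 158, 169.8, 164 and 160.5 at day 1 and at 152, 156, 154 and 149 at day 12. Every day 1 library lay above every day 0 library, and the days 12 and 0 overlapped. The log2 fold change was 0.22 (SE 0.067, adjusted p = 0.0127) at day 1 and 0.13 (SE 0.067, adjusted p = 0.123) at day 12, both against day 0. The day 1 call was lost without the filter on low counts (adjusted p = 0.0508), and DESeq2 called the day 12 change (adjusted p = 0.0362). In C2C12, Mdm2 stood at 94.7, 89.4, 93.6 and 95.2 CPM at day 0, at 104, 102, 107 and 106 at day 1 and at 119.9, 129.5, 125 and 133 at day 6. The 3 days did not overlap, and the level was higher at each later day, by 0.17 (SE 0.050, adjusted p = 0.00952) at day 1 and 0.44 (SE 0.050, adjusted p = 1.22e-07) at day 6 over day 0. Counts of the human gene may hold reads of CPM (carboxypeptidase M), which overlaps it on the opposite strand and had 7.92% as many counts.

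CCNG1 encodes cyclin G1, a p53 target that recruits a phosphatase to MDM2 and so takes part in the same loop. Human CCNG1 lies on chromosome 5, 163437569 to 163446151 on the plus strand. In LHCN-M2 it averaged 209 ± 13.2 CPM at day 0, 316 ± 21.5 at day 1 and 203 ± 10.8 at day 12. The day 1 libraries (289.5 to 341 CPM) lay above all others, while day 12 (197 to 219) overlapped day 0 (199 to 229). The rise at day 1 over day 0 was 0.59 (SE 0.074, adjusted p = 8.29e-06), the fall at day 12 against day 1 -0.63 (SE 0.074, adjusted p = 6.88e-06), and the difference of day 12 and day 0 -0.041 (adjusted p = 0.662). Without day 0 replicate 2 that difference was 0.011 (adjusted p = 0.89). Mouse Ccng1 averaged 251 ± 16.9, 299.8 ± 18.7 and 311 ± 10.2 CPM at days 0, 1 and 6. It rose by 0.26 (SE 0.056, adjusted p = 0.000716) at day 1 and 0.31 (SE 0.056, adjusted p = 6.51e-05) at day 6 over day 0, and days 6 and 1 overlapped.

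p53 binds DNA as a tetramer at a pair of half-sites, each of 10 bases. The mouse promoter windows of RefSeq (build GRCm38.p6, 250 bases before to 50 bases after a gene's start) cover 8 of the 10 genes in 11 windows, and were searched for the p53 half-site consensus, which is its own reverse complement, so that 1 strand covers both. A half-site with no mismatch was in 4 of the 11 windows, those of Mdm2, Ccng1, Bax and 1 of Sesn1, and in 8.36% of all 32841 windows. A pair with a spacer of at most 13 bases and at most 2 mismatches was in 3 of the 11, those of Ccng1, Bax and the same window of Sesn1, and in 4.09% of all windows. All of these matches are shown, whatever the change of their genes. In C2C12, Mdm2 and Ccng1 rose at both later days, Sesn1 fell at day 6 and Bax passed neither test. The windows of Phlda3, Eda2r, Bbc3 and Fas held no match. Of these genes, Phlda3 rose at both later days, Eda2r rose at day 6, and Bbc3 and Fas fell at day 6. Half-sites are in capitals, and each is read 5′ to 3′ on the strand of its gene.
Ccng1: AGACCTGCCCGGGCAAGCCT
Bax: TGACAAGCATatcccAGGCAAGCTT
Sesn1: GCGCTTGGCCttcAAGCTTGTTT
Mdm2: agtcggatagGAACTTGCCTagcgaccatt
The Ccng1 pair, with 1 mismatch and its half-sites adjoining, is at chr11:40755462-40755481 on the minus strand and begins 195 bases before the start. The Bax pair, with 2 mismatches and a spacer of 5 bases, is at chr7:45467090-45467114 on the minus strand. The Sesn1 pair, with 2 mismatches and a spacer of 3 bases, is at chr10:41887253-41887275 on the plus strand. For Mdm2 a single half-site is shown with 10 bases on each side, at chr10:117710925-117710954 on the minus strand. A match describes these letters only and is not a measured binding site, and windows of Zmat3 and Trp53inp1 were not used here.

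ZMAT3 encodes a zinc finger protein that binds RNA and regulates splicing and transcript stability. Its human gene is on chromosome 3, 179017223 to 179072279 on the minus strand. Its level in LHCN-M2 was 296, 199, 279 and 300.0 CPM at day 0, 385, 508, 443 and 449.7 at day 1 and 318, 364, 356 and 353 at day 12. All 4 libraries of each later day lay above all of day 0, and replicate 2 was the lowest of day 0. ZMAT3 rose by 0.73 (SE 0.12, adjusted p = 0.000117) at day 1 and 0.37 (SE 0.12, adjusted p = 0.0149) at day 12 over day 0. Without day 0 replicate 2 these changes were 0.63 and 0.26, both still called. The fall at day 12 against day 1, -0.36 (adjusted p = 0.025), was lost on leaving out day 1 replicate 2 (adjusted p = 0.0856), day 1 replicate 4 (0.0538), day 12 replicate 1 (0.0707) or day 12 replicate 4 (0.0503).

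Mouse Zmat3 moved up and then down. It had 48.0, 49.7, 45.7 and 47.1 CPM at day 0 of C2C12, 66.8, 66.5, 66.3 and 66.4 at day 1 and 24.3, 20.5, 20.8 and 25.5 at day 6. The 3 days did not overlap, with day 1 highest and day 6 lowest. The changes were 0.48 (SE 0.068, adjusted p = 5.4e-06) at day 1 and -1.06 (SE 0.070, adjusted p = 2.88e-11) at day 6, both over day 0, and -1.54 (SE 0.070, adjusted p = 1.03e-13) at day 6 over day 1.

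PHLDA3 encodes a pleckstrin homology domain protein that holds back the kinase AKT. The human gene lies on chromosome 1, 201464383 to 201469237 on the minus strand. In LHCN-M2 it stood at 136, 218, 113 and 132 CPM at day 0, 306, 268, 304 and 296 at day 1 and 285, 224, 218 and 248 at day 12. Day 1 lay above day 0 throughout, while the highest day 0 library, replicate 2, reached into the range of day 12. PHLDA3 rose by 0.97 (SE 0.16, adjusted p = 0.000142) at day 1 and 0.70 (SE 0.16, adjusted p = 0.00168) at day 12 over day 0. Without day 0 replicate 2 these rises were 1.23 and 0.95. The difference of day 12 and day 1 was -0.27 (adjusted p = 0.202). It was called without that library (-0.28, adjusted p = 0.00503), which belongs to neither day. The fit of the compared days alone called it as well (-0.27, adjusted p = 0.00651). Mouse Phlda3 averaged 113 ± 7.41, 153 ± 7.39 and 144 ± 7.18 CPM at days 0, 1 and 6. It rose by 0.44 (SE 0.058, adjusted p = 2.26e-06) at day 1 and 0.35 (SE 0.058, adjusted p = 1.91e-05) at day 6 over day 0, and days 6 and 1 overlapped. The change at day 6 over day 1 was -0.088 (adjusted p = 0.195). It was called in the fit of the compared days alone (-0.13, adjusted p = 0.0415). Leaving out day 0 replicate 1 or 3, day 1 replicate 2 or day 6 replicate 2 also gave a call (adjusted p from 0.0238 to 0.0465).

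SESN1 encodes sestrin 1, a stress protein that restrains the growth kinase complex mTORC1. Human SESN1 is on chromosome 6, 108986437 to 109094819 on the minus strand. It had 28.3, 35.5, 34.7 and 30.3 CPM at day 0, 54.6, 59.3, 55.7 and 51.8 at day 1 and 53.8, 50.7, 52.5 and 44.7 at day 12. Both later days lay above day 0 with no overlap, and they overlapped each other. It rose by 0.78 (SE 0.093, adjusted p = 5.27e-06) at day 1 and 0.65 (SE 0.093, adjusted p = 2.72e-05) at day 12 over day 0. Mouse Sesn1 had 149, 149, 148 and 145 CPM at day 0, 137, 139, 137 and 133 at day 1 and 56.0, 63.4, 63.0 and 63.0 at day 6. Day 6 lay far below both earlier days, at -1.27 (SE 0.052, adjusted p = 1.23e-14) against day 0, while the difference at day 1, -0.11 (SE 0.051, adjusted p = 0.0687), missed the threshold although the libraries of days 1 and 0 did not overlap.

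TP53INP1 encodes a nuclear and autophagosomal protein that promotes the activity of p53 and autophagy. It had the largest rise of the 10 genes in LHCN-M2 at day 1. Its level was 43.8, 30.7, 44.1 and 48.4 CPM at day 0, 195, 237, 231 and 217 at day 1 and 119.8, 128, 129 and 130.4 at day 12. The 3 days did not overlap, with day 1 highest. The rise over day 0 was 2.40 (SE 0.12, adjusted p = 3.39e-10) at day 1, a fold of 5.27, and 1.60 (SE 0.12, adjusted p = 1.81e-08) at day 12. The day 12 rise was above that of BBC3 (1.47) with all libraries and below it without day 0 replicate 2 (1.49 for TP53INP1 and 1.77 for BBC3). The change at day 12 over day 1 was -0.79 (SE 0.11, adjusted p = 5.89e-05). NDUFAF6 overlaps the human gene on the opposite strand, with 9.34% as many counts and means of 12.9, 10.4 and 14.5 CPM at days 0, 1 and 12. Mouse Trp53inp1 had 84.4, 78.2, 82.3 and 82.5 CPM at day 0, 79.7, 89.9, 82.3 and 74.9 at day 1 and 40.0, 40.3, 37.1 and 37.0 at day 6. Days 1 and 0 overlapped, with a change of -0.0026 (adjusted p = 0.978), and day 6 lay below both, at -1.08 (SE 0.062, adjusted p = 2.82e-12) against day 0.

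**Figure D2:**
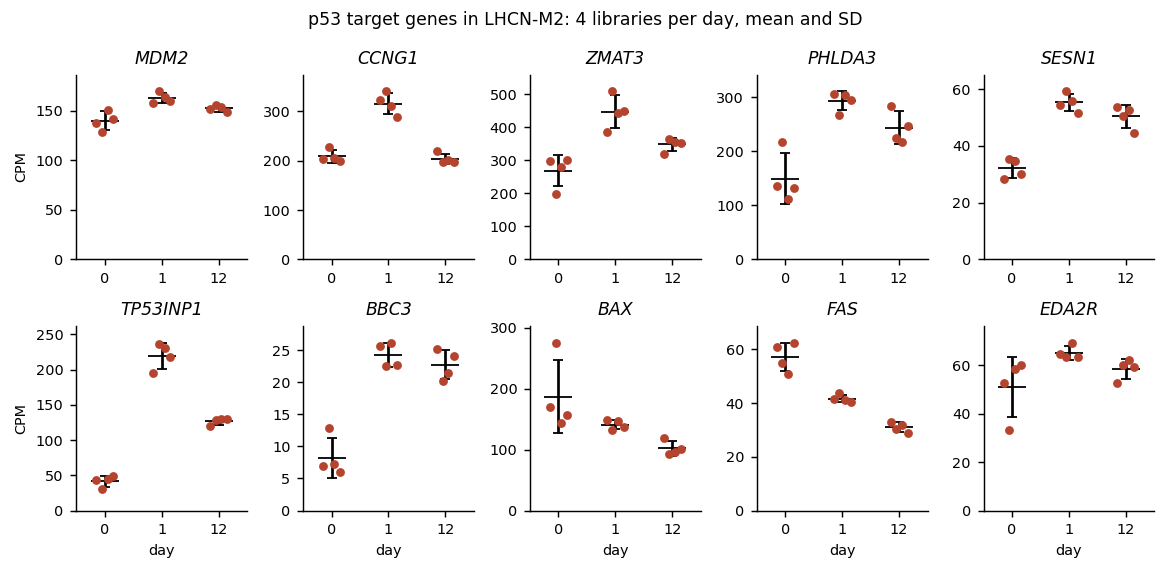
Levels of the 10 genes in LHCN-M2 in CPM (vertical axes, from 0) at days 0, 1 and 12; red points are the 4 libraries of a day, and black marks show the mean and SD. TP53INP1 and BBC3 are lowest at day 0 in all 4 libraries, and the day 0 libraries of PHLDA3, BAX and ZMAT3 are spread by replicate 2.

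**Figure D3:**
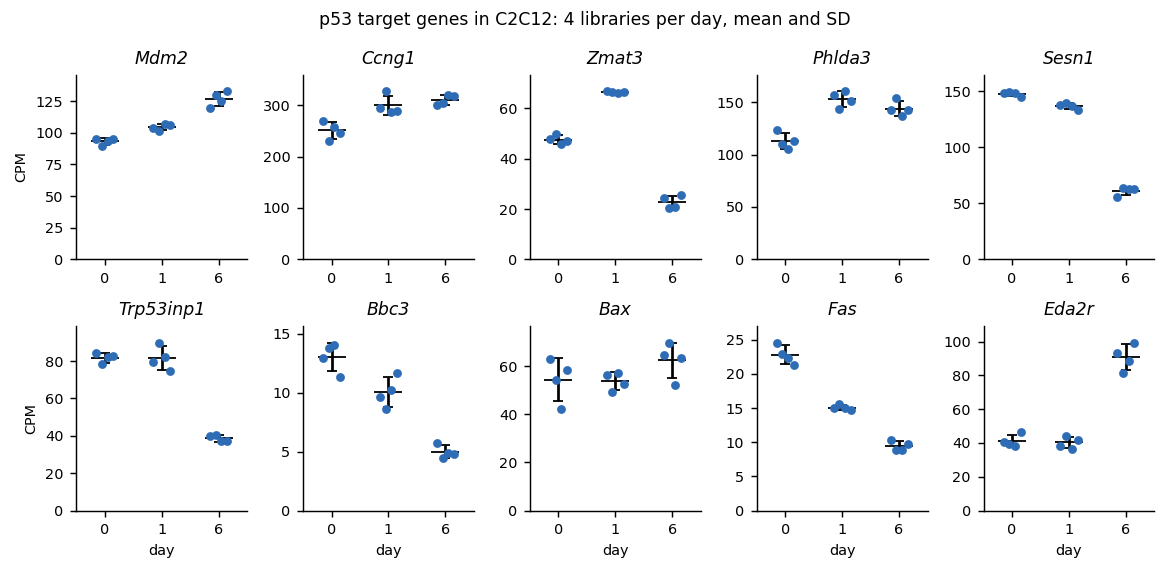
Levels of the 10 genes in C2C12 in CPM (vertical axes, from 0) at days 0, 1 and 6; blue points are the 4 libraries of a day, and black marks show the mean and SD. Zmat3, Sesn1, Trp53inp1, Bbc3 and Fas are lowest at day 6, where Mdm2 and Eda2r are highest.

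BBC3 encodes PUMA, a protein with only the BH3 domain of the BCL2 family, which frees BAX and BAK1 from their inhibitors. The human gene lies on chromosome 19, 47220822 to 47232766 on the minus strand. It was the lowest of the 10 genes in LHCN-M2, at 6.95, 12.8, 7.21 and 5.97 CPM at day 0, 25.7, 22.5, 26.2 and 22.6 at day 1 and 25.2, 20.2, 21.4 and 24.2 at day 12. Both later days lay above day 0 with no overlap, and replicate 2 was the highest of day 0. BBC3 rose by 1.56 (SE 0.19, adjusted p = 6.37e-06) at day 1 and 1.47 (SE 0.19, adjusted p = 9.06e-06) at day 12 over day 0, and by 1.87 and 1.77 without day 0 replicate 2. Mouse Bbc3 had 12.9, 13.8, 14.0 and 11.3 CPM at day 0, 9.64, 8.65, 10.2 and 11.7 at day 1 and 5.75, 4.48, 4.88 and 4.80 at day 6. Day 6 lay below both earlier days, at -1.38 (SE 0.12, adjusted p = 3.26e-09) against day 0. The fall at day 1, -0.37 (SE 0.12, adjusted p = 0.0121), had overlapping libraries, and it was lost on leaving out day 0 replicate 2 or 3 or day 1 replicate 1 or 2, with adjusted p from 0.0582 to 0.0881.

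BAX encodes the pore-forming effector that opens the outer mitochondrial membrane. Human BAX is on chromosome 19, 48954815 to 48961798 on the plus strand. In LHCN-M2 it had 171, 276, 144 and 157 CPM at day 0, 149, 132, 147 and 138 at day 1 and 119, 92.1, 96.9 and 101 at day 12. Day 12 lay below both earlier days with no overlap, and day 0 replicate 2 was the highest of all 12 libraries. BAX fell by day 12, with a log2 change of -0.87 (SE 0.16, adjusted p = 0.00033) against day 0, and of -0.61 without day 0 replicate 2. At day 1 the change was -0.40 (SE 0.16, adjusted p = 0.0529), and -0.14 (adjusted p = 0.165) without that library. It was called with DESeq2 (adjusted p = 0.0388), without the filter (0.0168) and without day 0 replicate 3 (0.0172) or 4 (0.0327). The fall at day 12 against day 1, -0.47 (adjusted p = 0.0321), was lost without any 1 of day 1 replicates 1, 3 and 4 or any 1 of the 4 day 12 libraries except replicate 1, with adjusted p from 0.0558 to 0.091.

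Mouse Bax averaged 54.5 ± 8.95, 53.8 ± 3.74 and 62.6 ± 7.32 CPM at days 0, 1 and 6, and all 3 days overlapped. Its change was -0.018 (SE 0.100, adjusted p = 0.899) at day 1 and 0.20 (SE 0.100, adjusted p = 0.0865) at day 6 over day 0. The day 6 difference was called without the filter (adjusted p = 0.0398), without day 0 replicate 1 (0.0188) and without day 6 replicate 3 (0.0256).

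FAS encodes a death receptor of the tumour necrosis factor receptor family and was the member that fell in both lines at both later days. Human FAS is on chromosome 10, 88990582 to 89015785 on the plus strand. In LHCN-M2 it averaged 57.3 ± 5.25 CPM at day 0, 41.7 ± 1.38 at day 1 and 31.0 ± 1.75 at day 12, and the 3 days did not overlap. Its log2 change was -0.46 (SE 0.082, adjusted p = 0.000275) at day 1 and -0.88 (SE 0.082, adjusted p = 2.78e-07) at day 12 against day 0. Mouse Fas averaged 22.8 ± 1.38, 15.1 ± 0.385 and 9.49 ± 0.685 CPM at days 0, 1 and 6, again with no overlap, and its changes against day 0 were -0.60 (SE 0.084, adjusted p = 4.65e-06) at day 1 and -1.26 (SE 0.086, adjusted p = 4.52e-11) at day 6. Human FAS overlaps the smooth muscle actin gene ACTA2 on the opposite strand. ACTA2 had 377% as many counts as FAS and means of 22.7, 137.6 and 327.1 CPM at days 0, 1 and 12, higher at each later day while FAS was lower. The strand setting of the counting is not given in the sources used here, so reads of the shared stretch cannot be told apart.

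EDA2R encodes the X-linked receptor of ectodysplasin A2, another member of that receptor family. Human EDA2R is on chromosome X, 66595637 to 66639298 on the minus strand. In LHCN-M2 it had 52.7, 33.1, 58.3 and 60.0 CPM at day 0, 64.5, 63.2, 69.4 and 63.2 at day 1 and 52.7, 60.2, 62.2 and 59.4 at day 12. Replicate 2 was the lowest of day 0, and the libraries of days 1 and 0 did not overlap. Its change over day 0 was 0.35 (SE 0.14, adjusted p = 0.0553) at day 1 and 0.20 (SE 0.14, adjusted p = 0.253) at day 12, and the day 12 value was 0.047 (adjusted p = 0.609) without day 0 replicate 2. The day 1 difference was smaller but called without day 0 replicate 2 (0.21, adjusted p = 0.0224), and it was called without replicate 3 (0.0366) or 4 (0.0285) of that day, without the filter (0.0239) and by DESeq2 (0.0442). Mouse Eda2r had 40.9, 39.1, 38.1 and 46.5 CPM at day 0, 38.2, 44.3, 36.7 and 42.0 at day 1 and 93.5, 81.5, 88.6 and 99.5 at day 6. Day 6 lay above both earlier days, which overlapped each other. Its rise at day 6, 1.14 (SE 0.078, adjusted p = 4.59e-11) over day 0, was the largest of the 10 genes in C2C12.

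The changes of the 2 lines were compared directly, as the difference of their log2 fold changes (LHCN-M2 minus C2C12) in 1 fit over 10958 genes matched by symbol. At day 1 over day 0 the difference was positive in 5 of the 10 genes and negative in 0, against 26.0% and 34.0% of all matched genes (60.0% in all). It was 2.40 (SE 0.13, adjusted p = 1.2e-13) for TP53INP1, 1.93 (SE 0.23, adjusted p = 1.03e-07) for BBC3 and 0.90 (SE 0.099, adjusted p = 3.1e-08) for SESN1. CCNG1 and PHLDA3 rose in both lines, and more in LHCN-M2, by 0.34 (SE 0.091, adjusted p = 0.00249) and 0.53 (SE 0.18, adjusted p = 0.0139). No negative difference had an unadjusted p under 0.05 (BAX, -0.39, had 0.0785), and DESeq2 also called 5 positive and 0 negative. BAX was called negative without LHCN-M2 day 0 replicate 3 (-0.49, adjusted p = 0.0412) or C2C12 day 0 replicate 1 (-0.50, adjusted p = 0.0496), and was -0.12 (adjusted p = 0.478) without LHCN-M2 day 0 replicate 2. Scaling on the matched genes alone shifted the median of all genes by 0.105 and called 8 positive, adding ZMAT3, FAS and EDA2R. With each line's own scaling, leaving out LHCN-M2 day 0 replicate 2 moved EDA2R from 0.38 to 0.24 (adjusted p = 0.0604). It also moved ZMAT3 from 0.25 to 0.15 (adjusted p = 0.198) and MDM2 from 0.057 to 0.036 (adjusted p = 0.652), and none of these was called.

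The last days are day 12 of LHCN-M2 and day 6 of C2C12 and are not the same time. Over day 0 their difference was positive in 5 genes and negative in 4 (backgrounds 31.2% and 39.9%, 71.2% in all). It was 2.85 (SE 0.24, adjusted p = 1.07e-10) for BBC3, 2.69 (SE 0.14, adjusted p = 7.87e-15) for TP53INP1, 1.92 (SE 0.10, adjusted p = 1.69e-14) for SESN1 and 1.44 (SE 0.14, adjusted p = 3.07e-09) for ZMAT3, each of which had risen in LHCN-M2 and fallen in C2C12. FAS fell in both lines and less in LHCN-M2, by 0.38 (SE 0.10, adjusted p = 0.00248). The negative differences were -1.07 (SE 0.21, adjusted p = 8e-05) for BAX, -0.94 (SE 0.17, adjusted p = 3.35e-05) for EDA2R, -0.35 (SE 0.091, adjusted p = 0.00149) for CCNG1 and -0.32 (SE 0.073, adjusted p = 0.000476) for MDM2. Scaling on the matched genes alone shifted the median of all genes by 0.173, and relative to it the calls of MDM2 (-0.15, adjusted p = 0.0891) and CCNG1 (-0.18, adjusted p = 0.0781) were lost. PHLDA3 (0.35, SE 0.18, adjusted p = 0.0851) was called without LHCN-M2 day 0 replicate 2 (0.60, adjusted p = 1.51e-05). PHLDA3 was also called by DESeq2 (0.40, adjusted p = 0.0408), with RLE scaling (0.40, adjusted p = 0.0468) and with scaling on the matched genes alone (0.53, adjusted p = 0.0100). Between the last day and day 1 the difference was positive in 3 genes and negative in 4 (backgrounds 27.0% and 29.9%, 56.9% in all), among them 1.19 (SE 0.14, adjusted p = 1.72e-07) for ZMAT3 and -1.32 (SE 0.17, adjusted p = 5.66e-07) for EDA2R. DESeq2, RLE scaling and the fit without the filter called 5 positive, adding FAS and TP53INP1. FAS differed by 0.24 (SE 0.11, adjusted p = 0.0559), and by 0.29 in DESeq2 (adjusted p = 0.0144). TP53INP1 differed by 0.29 (SE 0.13, adjusted p = 0.0656), by 0.34 in DESeq2 (adjusted p = 0.0269) and by 0.28 without LHCN-M2 day 0 replicate 2 (adjusted p = 0.00728).

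**Figure D4:**
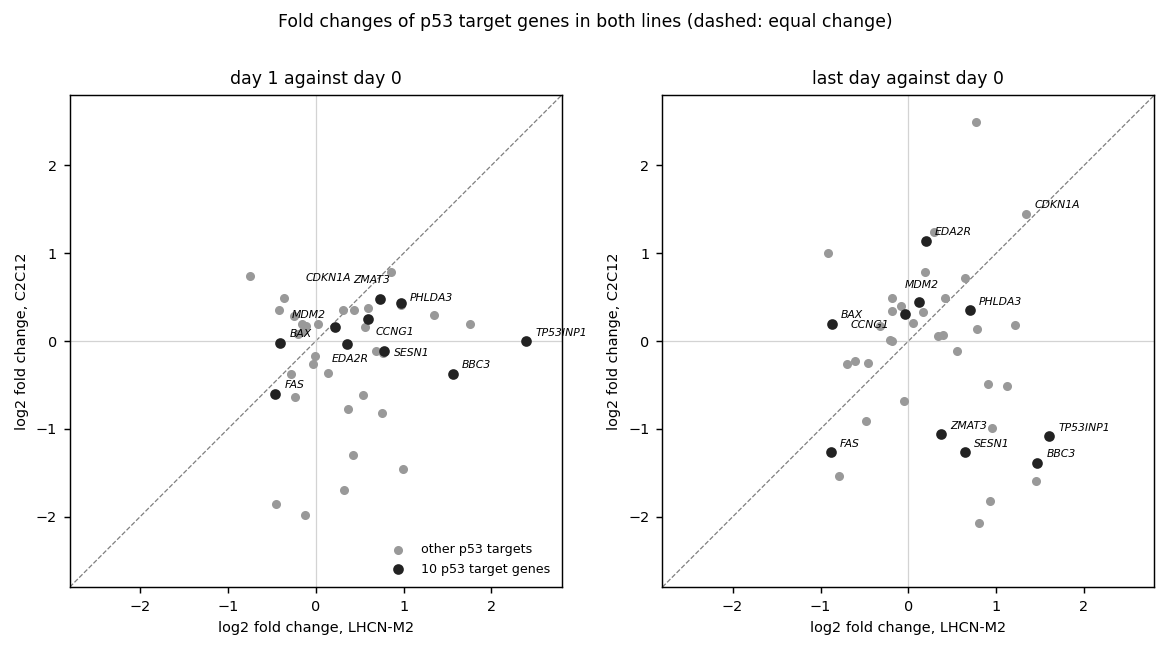
Log2 fold changes in LHCN-M2 (horizontal axis) and C2C12 (vertical axis) of the 10 genes (black, named), of CDKN1A (named) and of the other p53 targets tested in both lines (grey), at day 1 over day 0 on the left and at each line's last day over day 0 on the right; the dashed line marks equal change. On the right, TP53INP1, BBC3, SESN1 and ZMAT3 lie at the lower right, higher in LHCN-M2 and lower in C2C12, and FAS in the lower left.

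Levels between the genes were compared per kilobase of the deposited gene length. At day 0 of LHCN-M2 the highest were BAX (72.3 ± 23.3 CPM per kb), CCNG1 (67.6 ± 4.26) and PHLDA3 (47.7 ± 14.9), where the SD of BAX overlapped those of CCNG1 and PHLDA3, and the lowest was BBC3 (2.59 ± 0.974). Without day 0 replicate 2, CCNG1 (65.5 ± 1.14 CPM per kb, n = 3) came before BAX (60.8 ± 5.15), within their SDs. By day 12 PHLDA3 (77.6 ± 9.62 CPM per kb) and CCNG1 (65.7 ± 3.49) came before BAX (39.5 ± 4.55) and ZMAT3 (36.1 ± 2.12). PHLDA3 and CCNG1 lay within their SDs, as did BAX and ZMAT3. BBC3 (7.15 ± 0.725) and FAS (7.30 ± 0.413) were last and within their SDs. At day 0 of C2C12, Phlda3 (72.4 ± 4.75 CPM per kb) and Ccng1 (71.5 ± 4.80) led and lay within their SDs, followed by Sesn1 (37.1 ± 0.539) and Bax (34.6 ± 5.68). Zmat3 was the lowest there (4.17 ± 0.148 CPM per kb), while in LHCN-M2 it was the fourth highest at day 0 (27.8 ± 4.92). At day 6 Sesn1 (15.4 ± 0.897 CPM per kb) had come level with Eda2r (15.4 ± 1.29). These levels come from tables normalized separately, and no test was made between the lines on them.

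MDM4, the partner of MDM2 that blocks the activation domain of p53, went opposite ways in the lines. In LHCN-M2 it averaged 20.3 ± 2.65, 31.7 ± 1.56 and 26.1 ± 1.95 CPM at days 0, 1 and 12 and rose at day 1 (0.64, SE 0.100, adjusted p = 7.76e-05) and day 12 (0.36, adjusted p = 0.0067) over day 0. In C2C12, Mdm4 averaged 222 ± 16.2, 194 ± 3.68 and 145 ± 7.04 CPM and fell at day 1 (-0.19, adjusted p = 0.00668) and day 6 (-0.62, SE 0.056, adjusted p = 3.9e-09) against day 0. The difference between the lines at the last day was 0.98 (SE 0.11, adjusted p = 1.79e-08). CDKN2A, whose ARF product inhibits MDM2, averaged 253 ± 25.4 CPM at day 12 of LHCN-M2 and 323 ± 94.0 at day 0 (-0.35, adjusted p = 0.0604), and Cdkn2a was at 0 counts in all 12 C2C12 libraries.

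Of 14 genes listed as the p53 family and its regulators, 14 were tested in LHCN-M2 and 12 in C2C12. In LHCN-M2, over day 0, 5 rose and 5 fell at day 1 (backgrounds 23.4% and 23.5%). At day 12, 3 rose and 6 fell (backgrounds 27.1% and 27.5%). The checkpoint kinase CHEK1 fell to 16.1 ± 0.659 CPM at day 1 of LHCN-M2 and 9.58 ± 1.74 at day 12, against 44.9 ± 2.26 at day 0, and the kinase HIPK2, which phosphorylates p53, fell at day 1 (-1.23, SE 0.19, adjusted p = 8.92e-05). In C2C12, over day 0, 6 rose and 3 fell at day 1 (backgrounds 25.9% and 24.4%). At day 6, 4 rose and 2 fell (backgrounds 33.1% and 32.5%). Hipk2 rose at day 1 (0.82, SE 0.14, adjusted p = 6.41e-05), as did the acetyltransferase gene Ep300 (0.65, adjusted p = 3.48e-06), and Atm, a DNA damage kinase, rose at day 6 (0.62, adjusted p = 2.74e-06).

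CDKN1A encodes p21, the inhibitor of cyclin-dependent kinases through which p53 stops the cell cycle and which also rises in muscle differentiation. It averaged 893 ± 79.5, 1353 ± 52.9 and 2254 ± 75.4 CPM at days 0, 1 and 12 of LHCN-M2, and Cdkn1a 113 ± 7.24, 147 ± 6.46 and 309 ± 11.7 CPM at days 0, 1 and 6 of C2C12. It rose by 0.60 (SE 0.069, adjusted p = 3.7e-06) at day 1 and 1.34 (SE 0.070, adjusted p = 3.68e-10) at day 12 of LHCN-M2. In C2C12 it rose by 0.38 (SE 0.055, adjusted p = 7.5e-06) at day 1 and 1.45 (SE 0.055, adjusted p = 3.66e-15) at day 6. The difference between the lines at the last day was -0.11 (SE 0.087, adjusted p = 0.253).

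CDKN1A is 1 of 35 further p53 targets that were listed, of which 34 were tested in LHCN-M2 and 32 in C2C12. In LHCN-M2, over day 0, 15 rose and 6 fell at day 1 (backgrounds 23.4% and 23.5%). At day 12, 14 rose and 8 fell (backgrounds 27.1% and 27.5%). The medians were 0.19 and 0.22. The largest rises at day 1 were those of STEAP3, a metalloreductase (348 ± 19.1 CPM at day 1 and 103 ± 6.52 at day 0), BTG2, an antiproliferative gene (1.34, adjusted p = 8.08e-10), and CYFIP2 (0.99, adjusted p = 6.94e-06). AEN, a nuclease of apoptosis, fell at day 1 (-0.75, adjusted p = 1.82e-06) and day 12 (-0.92, adjusted p = 1.55e-07). TP53I11 (1.46, adjusted p = 4.14e-09) and RRM2B, a ribonucleotide reductase subunit (1.21, adjusted p = 3.33e-08), rose at day 12.

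In C2C12, over day 0, 11 of the 32 rose and 11 fell at day 1 (backgrounds 25.9% and 24.4%). At day 6, 13 rose and 11 fell (backgrounds 33.1% and 32.5%). The medians were 0.097 and 0.066. Tob1 (0.78, adjusted p = 2.71e-08) and Aen (0.75, adjusted p = 3.47e-09) rose at day 1, and Gdf15, a secreted stress cytokine (-1.98, adjusted p = 6.18e-11), and Gadd45a (-1.86, adjusted p = 1.61e-12) fell. Pmaip1, which encodes the BH3-only protein NOXA, was at 35.5 ± 2.44 CPM at day 6 and 6.32 ± 1.09 at day 0, a rise of 2.49 (SE 0.14, adjusted p = 1.75e-12). Sesn2, a second sestrin gene, fell at day 6 as Sesn1 did (-2.07, SE 0.11, adjusted p = 1.12e-12), as did Dram1, a lysosomal autophagy gene (-1.82, adjusted p = 1.81e-15), and Fdxr (-1.54, adjusted p = 1.05e-11). Between the lines, the difference at day 1 was positive in 17 and negative in 5 of 32 (backgrounds 26.0% and 34.0%). At the last day over day 0 it was positive in 11 and negative in 9, shares near or below the backgrounds of 31.2% and 39.9%. For AEN the difference at day 1 was -1.50 (SE 0.092, adjusted p = 7.42e-13).

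Partners of the death genes were 15 in all, with 11 tested in each line. They moved both ways in LHCN-M2. BCL2L11, which encodes the BH3-only protein BIM, stood at 2.19, 1.59, 1.55 and 3.00 CPM at day 0 of LHCN-M2, 64.0, 62.2, 75.4 and 66.7 at day 1 and 46.0, 48.5, 50.2 and 44.6 at day 12. Both later days lay above day 0 with no overlap, at day 12 by 4.50 (SE 0.17, adjusted p = 9.2e-12). In C2C12 Bcl2l11 averaged 23.4 ± 1.31, 26.6 ± 1.72 and 8.49 ± 0.898 CPM at days 0, 1 and 6, and fell at day 6 against day 0 (-1.46, adjusted p = 1.07e-11). In LHCN-M2, 3 of the 11 rose and 5 fell at day 1 over day 0, against 23.4% and 23.5% of all genes. The survival gene BCL2L1 was lower there (-1.01, adjusted p = 2.22e-06) and the caspase gene CASP9 higher (0.97, adjusted p = 8.78e-05). In C2C12, 9 of the 11 rose and 0 fell at day 1 over day 0 (backgrounds 25.9% and 24.4%). All 11 estimates there were above 0. At day 6, 8 rose and 1 fell over day 0 (backgrounds 33.1% and 32.5%). Among those that rose at day 6 were Bid (0.98, adjusted p = 9.7e-11), which links death receptors to BAX, and the survival gene Mcl1 (0.80, adjusted p = 2.6e-11).

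The genes whose pattern over the 12 libraries of a line lay closest to that of MDM2 were found by the root mean square difference of log2 CPM after centring each gene, among genes with a mean of at least 10 CPM. In LHCN-M2 these were TMED10 (0.0380), RCBTB1 (0.0511) and MDFIC (0.0541) of 9672 genes ranked, and in C2C12 Tnfaip1 (0.0405), Morf4l2 (0.0437) and Pdrg1 (0.0493) of 9729. Of the other 9 members, EDA2R was nearest to MDM2 in LHCN-M2 (0.184) and Ccng1 in C2C12 (0.119), and TP53INP1 (0.921) and Zmat3 (0.804) were the farthest. Among all genes tested, EDA2R ranked only 1380 and Ccng1 only 687 by closeness to MDM2.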

How the data were processed

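Polyadenylated RNA of C2C12 and LHCN-M2 was measured in 24 libraries, 4 for each line and day. The deposited tables hold raw counts of reads per gene with no normalization, and each gene's length in bases, as the authors give it. Tools named per the submitters' processing notes are featureCounts 2.0.6, StringTie 2.2.3, HISAT2 2.2.1 and fastp, with GRCh38, hg38 and mm10 as builds. The role of each tool is not given in the sources used here, nor are the annotation and the strand setting. Mouse gene coordinates are not printed, because of 50722 symbols shared with GENCODE M21 only 2.74% lie at its start and end.

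Within each line, edgeR 4.0.16 (R 4.3.3) was fitted to all 12 libraries with 1 coefficient per day, after filterByExpr (18214 genes in LHCN-M2, 17065 in C2C12) and TMM scaling. Its quasi-likelihood test was adjusted by Benjamini-Hochberg over all genes tested, with a threshold of 0.05, and the SE is the fold change over the root of its F statistic. CPM were computed here from the counts with TMM-scaled totals. The lines were compared as an interaction over all 24 libraries on 10958 symbols matched ignoring case, with each line's own library sizes and factors. The fit within each line was tried on simulated data for its last day against day 0 only, and the fit between the lines was not. Alternatives were DESeq2 1.42.0, RLE scaling, no filter, a replicate block, the compared days alone and leaving out each library. Scaling on matched genes alone, and leaving out both LHCN-M2 day 0 replicate 2 and day 12 replicate 1, were added after seeing the data.

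The members and lists were chosen with earlier results of these data known. Named are all members, MDM4 and CDKN1A, and from each list at most 3 genes with the largest called rise and 3 with the largest called fall at 10 CPM or more in a group, with CDKN2A, chosen after its values were seen. Some genes that this rule names are not reported here. Pairs of libraries of a group differed by more than sampling noise (chi-square per degree of freedom of at least 6.32), so none was counted as a copy. Promoter windows are those of RefSeq.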

Additional observations from a re-analysis of the deposited data

Results flagged for a closer look

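Among 60 groups of 4 libraries screened (10 genes, 2 lines, 3 days), 1 held a library far from the other 3. Sesn1 had 56.0 CPM in C2C12 day 6 replicate 1, against 63.0 to 63.4 CPM in the other 3 libraries of that day. Chance alone flags about 1 in 20 groups.

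The change over time differed between the lines (LHCN-M2 minus C2C12, on the log2 scale, adjusted p under 0.05) in 21 of 30 tests over the 10 genes. These were 5, 9 and 7 of the 10 genes in the 3 comparisons that follow, where 60.0%, 71.2% and 56.9% of all matched genes were called. At day 1 over day 0 the differences were 0.34 for CCNG1, 0.53 for PHLDA3, 0.90 for SESN1, 1.93 for BBC3 and 2.40 for TP53INP1. At the last day over day 0 they were 1.44 for ZMAT3, 1.92 for SESN1, 2.85 for BBC3, 0.38 for FAS and 2.69 for TP53INP1, and -0.32 for MDM2, -0.35 for CCNG1, -1.07 for BAX and -0.94 for EDA2R. At the last day over day 1 they were 1.19 for ZMAT3, 1.02 for SESN1 and 0.92 for BBC3, and -0.37 for MDM2, -0.69 for CCNG1, -0.68 for BAX and -1.32 for EDA2R. Species, culture length and genetic background differ together between the lines and cannot be told apart.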

How the results depend on the processing

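No member that passed the test reversed its direction under any alternative run. Of the alternative values of single members, 1010 stayed on their side of the threshold within the lines, 15 lost and 25 gained a call, and between the lines 853 stayed, 2 lost and 45 gained one. Leaving out 1 library at a time gave 5 to 6 members called in C2C12 at day 1 over day 0, 9 to 10 at day 6 over day 0 and 7 to 8 at day 6 over day 1. In LHCN-M2 it gave 8 to 10, 7 to 7 and, at day 12 over day 1, 3 to 6, where 5 were called with all libraries. Between the lines it gave 5 to 7, 9 to 10 and 7 to 9. Scaling on matched genes alone gave 8 members at day 1 over day 0, against 5, with all genes shifted by a median of 0.105. Libraries with the same number deviated together little (r of -0.0527 to 0.0386 in C2C12 and -0.100 to 0.0914 in LHCN-M2). Whether equal numbers mark a shared culture is not in the labels, and these values cannot settle it. With the replicate block, the members called were 6, 9 and 7 in C2C12 and 9, 7 and 5 in LHCN-M2, where EDA2R at day 1 was added (0.37, adjusted p = 0.0464), and 6, 9 and 7 between the lines. The lowest member, Bbc3 at C2C12 day 6, rests on 762 counts over 4 libraries.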

Other observations

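The relatives of p53 moved in LHCN-M2, at low levels, and were named after their values were seen. TP63, which encodes p63, a relative of p53 that binds similar DNA, had 0.216, 0.159, 0.362 and 0.0234 CPM at day 0, 0.342, 0.801, 0.692 and 0.623 CPM at day 1 and 4.16, 5.68, 6.37 and 6.26 CPM at day 12. All day 12 libraries lay above all others, and the log2 fold change of day 12 over day 0 was 4.88 (SE 0.44, adjusted p = 1.74e-07) in edgeR's test. CDH1, an epithelial cadherin among the 10 markers of other cell types, rose as well, averaging 3.41 ± 0.331 CPM at day 12 and 0.241 ± 0.267 CPM at day 0 (3.82, SE 0.54, adjusted p = 2.52e-05). Of the 4 such markers tested, 1 rose and 1 fell, and the 10 summed to 5.81 to 7.27 CPM at day 12 and 3.74 to 6.36 CPM at day 0. EPCAM, another epithelial marker, averaged 0.0799 ± 0.131 CPM at day 12 and had 0 counts at day 0. Their part in the TP63 result was not tested. TP73 averaged 1.29 ± 0.232 CPM at day 12 and 3.38 ± 0.404 CPM at day 0, a fall (-1.38, SE 0.26, adjusted p = 0.000327). In C2C12, Trp63 averaged 3.81 ± 0.527 CPM at day 6 and 3.12 ± 0.669 CPM at day 0, and its change was 0.29 (SE 0.21, adjusted p = 0.235).

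Among the death genes, the largest difference between the lines was that of BCL2L11. Its change at the last day over day 0 exceeded that of C2C12 by 5.95 (SE 0.19, adjusted p = 9.59e-19) on the log2 scale. PMAIP1 rose on the last day in both lines, to 20.6 ± 1.08 CPM at day 12 of LHCN-M2, against 12.1 ± 1.21 CPM at day 0, a change of 0.77 (SE 0.10, adjusted p = 1.37e-05), and the C2C12 change was larger (difference -1.73, SE 0.18, adjusted p = 1.03e-08).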
